A study of Mus musculus with 36 samples.

Results

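The 10 genes described here (*Car3*, *Enpp2*, *Cdo1*, *Nnmt*, *Tmem98*, *Agt*, *Alcam*, *Lyz2*, *Chn1* and *Lgals9*) were taken from the 55536 genes counted in brown pre-adipocytes that carry a wild-type or an S22A form of retinoid X receptor alpha (RXRα). They were selected on these same counts, because the difference between the S22A and the wild-type cells was not alike in the 2 cell clones studied. That difference is therefore given for the 10 genes as a description, with no p of their own. Time and the clone averaged over genotypes were not the ground of the choice and were tested. Earlier results of these data were known at the choice, so it was not blind to time and clone. All 10 were among the 16723 genes that passed the filter on low counts. *Lyz2*, with at most 8 counts after day 0, passed only through its day 0 libraries. *Car3*, with at most 3 counts at day 0, passed only through libraries of the later days. Calls of these genes against day 0 are thus a description, since the high days let them pass.

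The cells were mouse brown pre-adipocytes in which *Rxra* had been disrupted with Cas9. Each of the 2 *Rxra*-/- lines, numbered 48 and 66, grew from a single cell, and both came from 1 clonal parental line. A retrovirus then supplied either the wild-type receptor (*Rxra*WT) or a receptor whose serine 22 is replaced by alanine (*Rxra*SA), so that every library carries the knockout and no library comes from unmodified cells. RNA was collected at day 0, day 2 and day 6 of differentiation in medium with insulin and triiodothyronine, to which dexamethasone, isobutylmethylxanthine and indomethacin were added up to day 2. The 12 combinations of clone, genotype and day had 3 libraries each. The deposited description calls these technical replicates and the paper calls them independent, so p-values measure only the spread between these libraries. Clone 48 was run in library pool 1 and clone 66 in library pool 2, so that clone and pool cannot be told apart. Each clone had 1 transduced line for each genotype, so that within a clone genotype and line cannot be told apart.

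RXRα is a nuclear receptor that binds DNA as a dimer with other receptors. In fat cells its main partner is PPARγ, and the dimer switches on genes of lipid storage and adipocyte identity as precursor cells mature. The 10 genes do not form a pathway. *Enpp2*, *Agt* and *Lyz2* encode secreted proteins and *Lgals9* a lectin that leaves the cell without a signal peptide. *Car3*, *Cdo1* and *Nnmt* encode enzymes of the cytosol that fat cells express strongly, *Alcam* and *Tmem98* encode membrane proteins, and *Chn1* encodes a regulator of a small GTPase.

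Total counts per library ranged from 11351078 to 24349263 with a median of 18338726, and the lowest total belonged to the *Rxra*SA library of clone 48 at day 0, replicate 1, whose omission changed none of the calls below. *Rxra* itself was read at a CPM (its count scaled by the library's total and TMM normalization factor) of 92.6 to 712, and its levels in *Rxra*SA and *Rxra*WT libraries overlapped in each clone on each day. Reads of the disrupted and of the re-expressed gene cannot be told apart. The summed level per kilobase of 12 brown adipocyte markers was 32.1 to 67.4 CPM at day 0 and 2025 to 3998 CPM at day 6, with *Ucp1*, the thermogenic uncoupling protein, at no more than 5 counts in any library. Fewer maturing cells and less RNA per cell cannot be told apart in such bulk RNA.

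**Figure D1:**
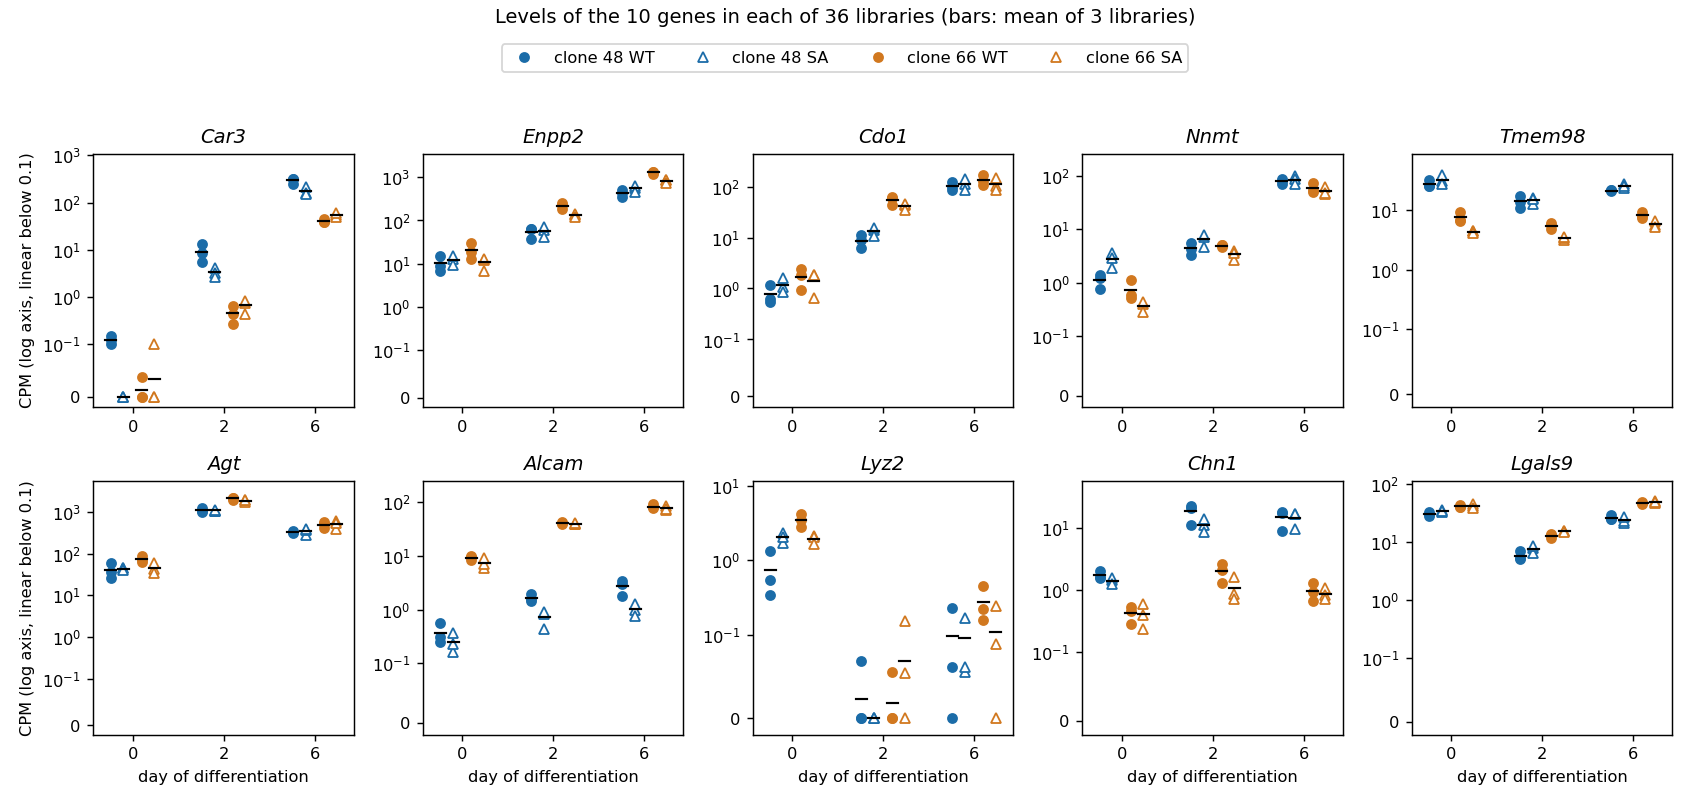
Each panel plots the CPM (log axis, linear below 0.1) of 1 gene against the day of differentiation; points are single libraries, filled circles *Rxra*WT and open triangles *Rxra*SA, in blue for clone 48 and orange for clone 66, and bars are means of 3 libraries. *Alcam* in clone 66 lies above clone 48 on every day, *Car3* climbs from at most 3 counts to 39.0 CPM or more and *Lyz2* has at most 8 counts after day 0.

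The levels of the 10 genes moved strongly with differentiation. Against day 0, 7 genes were higher at day 2 (35.8% of all genes tested were) and 3 were lower (37.5%), by edgeR's quasi-likelihood test with Benjamini-Hochberg adjustment over 16723 genes. From day 2 to day 6, 8 rose (31.9%) and 1 fell (30.1%). At day 6, 7 were above day 0 (32.9%) and 1 was below (35.4%), and the median log2 fold change of the 10 genes was 3.06 against -0.03 for all genes. The gene below day 0 was *Lyz2*, which is also among the 3 lower at day 2. *Lyz2*, and *Car3* among the higher genes, passed the filter only through the days when they are high. As many genes, 10, 9 and 8 in all, were called when the *Rxra*WT and *Rxra*SA libraries of 1 number, which vary together, were summed into single samples.

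*Enpp2* encodes autotaxin, the secreted enzyme that makes the signalling lipid lysophosphatidic acid, for which fat cells are a major source. In clone 48 its 6 libraries lay between 6.67 and 15.4 CPM at day 0 (median 10.9), between 36.7 and 71.1 CPM at day 2 (median 60.5) and between 344 and 635 CPM at day 6 (median 486). In clone 66 the ranges were 6.73 to 29.3 CPM, 122 to 251 CPM and 756 to 1359.8 CPM. The ranges of successive days did not overlap in either clone. *Enpp2* rose by 5.77 ± 0.24 (SE) on the log2 scale from day 0 to day 6 (adjusted p = 4.43e-21, edgeR). Its antisense transcript *Gm26684* covers 5.97% of its exon bases and had no more than 3 counts in any library.

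Among the 11 other genes listed for the lysophosphatidic acid axis, 9 were tested, of which 2 were higher and 6 lower at day 6 than at day 0, where 32.9% and 35.4% of all genes were. *Pla1a*, which makes lysophosphatidylserine, fell by 4.61 on the log2 scale. *Plpp2*, a phosphatase that removes lipid phosphates and the member with the highest level per kilobase, fell by 0.85.

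*Agt*, which encodes angiotensinogen, the precursor of the angiotensin peptides, peaked at day 2. In clone 48 it lay between 26.1 and 60.7 CPM at day 0 (median 42.3), between 975 and 1232 CPM at day 2 (median 1062) and between 280.5 and 389 CPM at day 6 (median 345). In clone 66 the medians were 61.5, 1947 and 522 CPM. Every day 2 library was above every library of the other days. *Agt* rose by 4.88 ± 0.14 on the log2 scale to day 2 (adjusted p = 1.20e-25, edgeR) and fell by 1.83 ± 0.12 to day 6 (adjusted p = 5.00e-15). Per kilobase of exon it had the highest level of the 10 genes at day 2, at 570.5 CPM in clone 48 and 1045 CPM in clone 66. Of the 12 other renin-angiotensin genes, 7 were tested. At day 6, 2 of them were above day 0 (32.9% of all genes) and 2 below (35.4%). *Enpep*, a peptidase that trims angiotensin, rose by 7.39 on the log2 scale. *Atp6ap2*, the renin receptor, fell by 0.67.

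The enzyme genes *Car3*, *Cdo1* and *Nnmt* were low at day 0 and abundant at day 6. *Car3* encodes carbonic anhydrase III, an enzyme abundant in fat and muscle. It had at most 3 counts in any day 0 library and at least 695 counts in every day 6 library. With the day 0 level set at 3 counts per library, day 6 was at least 1347-fold higher in clone 48 and at least 349-fold higher in clone 66. Of the 15 other carbonic anhydrases, 9 were tested. At day 6, 7 of them were above day 0 (32.9% of all genes) and 1 below (35.4%). *Car9*, a membrane form induced by low oxygen, rose by 4.78 on the log2 scale, and the mitochondrial *Car5b* rose by 1.85.

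*Cdo1* encodes cysteine dioxygenase, which takes cysteine towards taurine and sulfate. In clone 48 its medians on days 0, 2 and 6 were 0.962, 10.9 and 106 CPM, and in clone 66 the medians were 1.82, 45.0 and 117 CPM. It rose by 6.64 ± 0.31 on the log2 scale to day 6 (adjusted p = 6.94e-20, edgeR). Of the 11 other genes of cysteine and taurine metabolism, 9 were tested. At day 6, 6 of them were above day 0 (32.9% of all genes) and 1 below (35.4%). *Fmo1*, an oxygenase that makes taurine from hypotaurine, rose by 3.92 on the log2 scale. *Mpst*, which transfers sulfur from mercaptopyruvate, rose by 1.78.

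*Nnmt* encodes nicotinamide N-methyltransferase, which spends the methyl donor S-adenosylmethionine on nicotinamide. Its level was 0.282 to 3.57 CPM at day 0 over both clones and 45.3 to 96.2 CPM at day 6. It rose by 5.93 ± 0.23 on the log2 scale (adjusted p = 7.91e-22, edgeR), with the larger step between day 2 and day 6 (3.82 ± 0.20). All 10 other genes of methyl donor and NAD metabolism were tested. At day 6, 4 of them were above day 0 (32.9% of all genes) and 2 below (35.4%). *Mat2a*, which makes S-adenosylmethionine, rose by 0.60 on the log2 scale. *Nmnat3*, which makes NAD in mitochondria, rose by 3.03 in the fit over both clones, but had a mean of 0.624 CPM per kilobase at day 6 in clone 48 and 0.00882 in clone 66.

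*Alcam*, an adhesion molecule of the immunoglobulin family that binds CD6, rose by 3.08 ± 0.18 on the log2 scale to day 6 (adjusted p = 3.37e-17, edgeR). *Chn1*, a chimaerin that switches off the GTPase Rac, rose by 2.68 ± 0.26 to day 2 (adjusted p = 2.48e-11). Its step from day 2 to day 6 was -0.22 ± 0.21 (adjusted p = 0.398). Of 5 tested genes among the 8 other adhesion molecules, 3 were higher (32.9% of all genes) and 2 lower (35.4%) at day 6. *Vcam1*, which binds leukocyte integrins, fell by 4.28 on the log2 scale, and the junction protein *F11r* rose by 0.76. Of the 6 genes listed with *Chn1*, 3 were tested, of which the ephrin *Efnb3* fell by 0.65 on the log2 scale. *Rac1*, which encodes the GTPase, differed by 0.26 ± 0.12 (adjusted p = 0.0633).

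*Tmem98* and *Lgals9* dipped at day 2. *Tmem98*, a membrane protein of the endoplasmic reticulum that binds the transcription factor MYRF, fell by 0.78 ± 0.14 on the log2 scale to day 2 (adjusted p = 6.29e-06, edgeR) and rose by 0.70 ± 0.14 to day 6 (adjusted p = 4.22e-05). *Lgals9*, which encodes the sugar-binding galectin-9, fell by 1.92 ± 0.09 (adjusted p = 2.15e-19) and rose by 1.83 ± 0.09 (adjusted p = 2.09e-18). For both genes the difference between day 6 and day 0 did not pass the test (adjusted p = 0.629 and 0.364). This is an average over the clones, whose estimates had opposite signs. Within clone 48 and clone 66 the difference was -0.36 ± 0.12 and 0.27 ± 0.12 on the log2 scale for *Tmem98* (adjusted p = 0.0096 and 0.0528, edgeR). For *Lgals9* it was -0.38 ± 0.08 and 0.22 ± 0.08 (adjusted p = 0.000289 and 0.0264). The rise of *Lgals9* in clone 66 was not called with library size alone (adjusted p = 0.975), without the filter (0.106) or with same-numbered libraries summed (0.146). The fall of *Tmem98* in clone 48 was not called without the filter (0.117) or with summed libraries (0.0969). Its rise in clone 66, just above the threshold, was called in 20 of 36 fits that left out 1 library. Averaged over the clones, *Lgals9* passed only when counts were scaled by library size alone (adjusted p = 0.00387). *Myrf* was not called (0.14 ± 0.14 on the log2 scale, adjusted p = 0.391). Of the 7 other galectins, 6 were tested. At day 6, 3 of them were above day 0 (32.9% of all genes) and 2 below (35.4%). *Lgals12*, a galectin of lipid droplets, rose by 8.67 on the log2 scale. *Lgals1*, the most abundant per kilobase, fell by 0.26.

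*Lyz2*, the lysozyme gene that macrophages express strongly, had few counts throughout, with 7 to 88 counts at day 0, 0 to 3 at day 2 and 0 to 8 at day 6. With day 2 set at 3 counts per library, day 0 was at least 7.22-fold higher in clone 48 and at least 16.4-fold higher in clone 66. It fell by 3.82 ± 0.34 on the log2 scale from day 0 to day 6 (adjusted p = 5.20e-12, edgeR). Only its day 0 libraries let *Lyz2* pass the filter, so its falls from day 0 are a description and the p lends them no weight. The call from day 2 to day 6 rests on the few counts of those days (adjusted p = 0.0113, edgeR). The macrophage genes *Adgre1*, *Ptprc* and *Itgam* had no more than 1 count in any library. Summed over the 10 macrophage and leukocyte markers, the level per kilobase was 9.21 to 12.5 CPM at day 0 and 3.58 to 5.97 CPM at day 2, led by *Cd68* and *Cd14*. At day 6 it was 6.37 to 11.4 CPM, when *Lyz2* had at most 8 counts. The 74 windows of 75 bases that *Lyz2* shares with its neighbour *Lyz1* make up 5.96% of its transcript, and *Lyz1* had 0 to 10 counts.

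Averaged over genotypes, the 2 clones differed in the level of most of the 10 genes. The size of the difference could depend on the genotype. At day 0 the *Agt* means of clones 48 and 66 were 40.8 and 74.1 CPM in *Rxra*WT but 43.3 and 45.2 CPM in *Rxra*SA. Those of *Nnmt* were 1.12 and 0.740 CPM in *Rxra*WT but 2.77 and 0.371 CPM in *Rxra*SA. At day 0 clone 66 was above clone 48 in 4 genes (12.6% of all genes tested) and below it in 3 (11.1%). On day 2 it was above in 5 (14.5%) and below in 3 (15.5%), and on day 6 it was above in 4 (13.4%) and below in 4 (12.8%). With same-numbered libraries summed, 5, 8 and 6 of the 7, 8 and 8 calls of the 3 days were made, and those of *Agt* and *Lgals9* at day 0 (adjusted p = 0.0838 and 0.0634) and of *Nnmt* and *Agt* at day 6 (adjusted p = 0.0947 and 0.0604) were not. With the replicate number as a block, *Enpp2* and *Cdo1* were also called at day 0 (adjusted p = 0.0441 and 0.00395) and *Agt* was not (adjusted p = 0.0514). On the summed libraries *Enpp2* and *Cdo1* were not called there (adjusted p = 0.300 and 0.229). *Rxra* itself was lower in clone 66 at day 0 (-0.54 ± 0.16 on the log2 scale, adjusted p = 0.0117), and its part in these differences was not tested.

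*Alcam* differed most between the clones. At day 6 the *Rxra*WT libraries read 3.42, 2.97 and 1.76 CPM in clone 48 and 80.6, 90.4 and 77.5 CPM in clone 66. The *Rxra*SA libraries read 1.00, 1.29 and 0.744 CPM against 84.7, 71.5 and 73.6 CPM. No library of clone 48 on any day reached the lowest library of clone 66, 5.85 CPM at day 0. The log2 fold change of clone 66 over clone 48 was 4.70 ± 0.20, 5.20 ± 0.18 and 5.58 ± 0.17 on days 0, 2 and 6 (adjusted p = 9.58e-17, 4.45e-19 and 1.06e-19, edgeR). Averaged over genotypes, *Agt* and *Lgals9* were also higher in clone 66 on all 3 days. *Lgals9* differed by 0.35 ± 0.08, 1.07 ± 0.09 and 0.95 ± 0.08. *Agt* differed by 0.46 ± 0.16, 0.87 ± 0.16 and 0.56 ± 0.16, and its day 0 call was lost in 7 of 36 fits that left out 1 library, with an adjusted p of up to 0.166.

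*Chn1* and *Tmem98* were lower in clone 66 throughout. *Chn1* at day 6 read 17.7, 17.8 and 8.90 CPM in the *Rxra*WT libraries of clone 48 and 1.30, 0.912 and 0.661 CPM in those of clone 66. Its log2 fold change was -1.87 ± 0.30, -3.30 ± 0.25 and -3.99 ± 0.26 on days 0, 2 and 6. *Tmem98* differed by -2.41 ± 0.12, -1.75 ± 0.12 and -1.78 ± 0.12 on the same days, and its libraries of the clones did not overlap on any day (26.3, 32.1 and 25.9 CPM in *Rxra*WT of clone 48 at day 0, and 6.52, 9.37 and 6.94 CPM in clone 66).

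The counts of *Chn1* are summed over transcripts from 2 starts that lie far apart, and do not show which start was used. The bases before each start are shown because they differ in sequence makeup, and capitals mark CpG dinucleotides. Both are on the minus strand of GRCm38.p6, from RefSeq. The first window, chr2:73775347-73775596, has 31 CpG dinucleotides and 71.6% G and C. The second, chr2:73660424-73660673, has 2 CpG dinucleotides and 45.2% G and C.
*Chn1* outer start: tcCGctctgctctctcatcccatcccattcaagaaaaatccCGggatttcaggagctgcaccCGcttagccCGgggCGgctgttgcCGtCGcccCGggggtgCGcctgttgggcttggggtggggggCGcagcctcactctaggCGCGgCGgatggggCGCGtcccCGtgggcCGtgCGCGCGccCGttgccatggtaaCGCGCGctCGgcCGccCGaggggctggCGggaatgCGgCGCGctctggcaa
*Chn1* inner start: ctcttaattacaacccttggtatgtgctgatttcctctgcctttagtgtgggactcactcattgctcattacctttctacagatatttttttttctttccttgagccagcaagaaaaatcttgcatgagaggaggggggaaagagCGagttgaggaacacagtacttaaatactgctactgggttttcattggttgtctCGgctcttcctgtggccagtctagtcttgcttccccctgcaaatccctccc
The antisense genes *Chn1os1* and *Chn1os3* share 11.8% of the exon bases of *Chn1* and had at most 3 and 21 counts, and since the counting did not use strand their reads cannot be told apart from those of *Chn1* where they overlap.

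RefSeq promoter windows of 300 bases were found for 6 of the 10 genes (*Agt*, *Alcam*, *Chn1* with 2 windows, *Lgals9*, *Lyz2* and *Tmem98*). None held the direct repeat bound by RXRα dimers (AGGTCA, 1 base, AGGTCA), which 0.0396% of 32851 windows held, on either strand. None held a single AGGTCA (16.3% of windows), the C/EBP motif TTGCNNCAA (2.08%) or the glucocorticoid receptor motif of AGAACA and TGTTCT 3 bases apart (0.00913%). That says only that these letters are not in these windows.

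*Car3* was lower in clone 66. At day 2 it read 13.3, 8.57 and 5.58 CPM in *Rxra*WT and 4.18, 3.26 and 2.65 CPM in *Rxra*SA of clone 48, and all 6 libraries of clone 66 were between 0.273 and 0.821 CPM. The log2 fold change of clone 66 over clone 48 was -3.30 ± 0.24 at day 2 and -2.25 ± 0.17 at day 6 (adjusted p = 2.02e-11 and 1.22e-10, edgeR). *Nnmt* differed by -1.73 ± 0.24 at day 0 and -0.57 ± 0.16 at day 6 on the log2 scale. *Enpp2* was higher by 1.64 ± 0.20 at day 2 and 1.10 ± 0.20 at day 6, and *Cdo1* by 2.15 ± 0.21 at day 2. *Cdo1* did not pass at day 6 (0.19 ± 0.20, adjusted p = 0.545). *Lyz2* was higher in clone 66 at day 0 by 1.06 ± 0.29 averaged over genotypes (adjusted p = 0.00758, edgeR). Only its *Rxra*WT means differed that way, at 0.738 CPM in clone 48 and 3.47 CPM in clone 66. In *Rxra*SA they were 2.03 and 1.94 CPM.

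**Figure D2:**
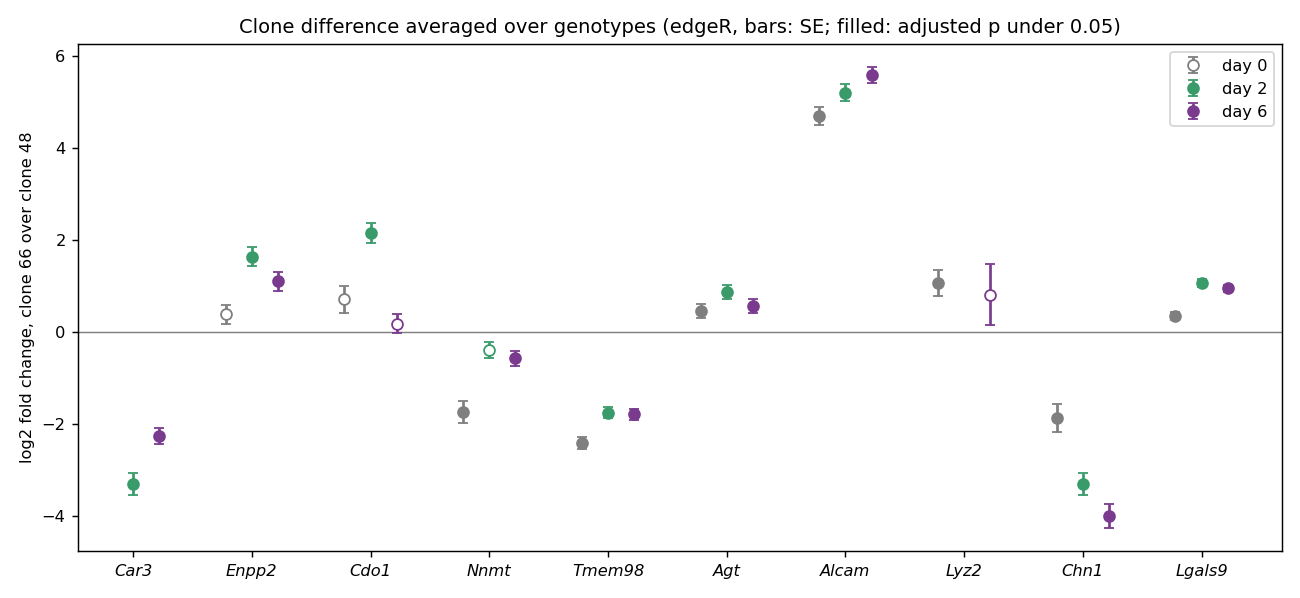
The log2 fold change of clone 66 over clone 48, averaged over genotypes, is plotted for each gene at day 0 (grey), day 2 (green) and day 6 (purple); bars are standard errors and filled points passed an adjusted p of 0.05. *Alcam* lies between 4.70 and 5.58 and *Chn1* between -1.87 and -3.99; *Car3* at day 0 and *Lyz2* at day 2 are left out because no library had more than 3 counts.

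The steps between days differed between the clones for some genes. From day 0 to day 2, 6 genes had a step of different size (6.84% of all genes tested), which was larger in clone 66 for *Enpp2*, *Cdo1* and *Nnmt*. For *Tmem98* and *Lgals9* the drop was smaller in clone 66, and for *Chn1* the rise was smaller. From day 2 to day 6, 2 genes differed (6.18%), *Cdo1* by -1.97 ± 0.29 on the log2 scale (clone 66 minus clone 48) and *Car3* by 1.05 ± 0.30. From day 0 to day 6, 4 genes differed (3.85%), *Chn1* by -2.12 ± 0.41, *Nnmt* by 1.17 ± 0.28, *Tmem98* by 0.63 ± 0.17 and *Lgals9* by 0.60 ± 0.12. With same-numbered libraries summed, 0, 1 and 0 genes were called on the 3 steps, and the one called was *Cdo1* from day 2 to day 6. For the others the adjusted p was then between 0.0579 and 0.458. With the replicate block *Enpp2* was also called from day 2 to day 6 (-0.55 on the log2 scale, adjusted p = 0.0163) and from day 0 to day 6 (0.73, adjusted p = 0.00373), which the summed libraries did not give (adjusted p = 0.689 and 0.794).

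*Cdo1* shows the clearest case. Its level was already 34.9 to 61.7 CPM at day 2 in clone 66, but 6.14 to 15.1 CPM in clone 48, and at day 6 the ranges of 86.8 to 167 CPM and 85.5 to 139 CPM overlapped. The step to day 2 was 4.95 ± 0.25 on the log2 scale in clone 66 and 3.51 ± 0.26 in clone 48, and the step to day 6 was 1.35 ± 0.20 and 3.32 ± 0.22.

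The difference between *Rxra*SA and *Rxra*WT was read within pairs that share clone, day and number, since libraries of 1 number varied together. The 3 pairs of a clone and day compare the same lines, 1 for each genotype. Their signs and SD thus describe the spread between libraries of these lines, not between lines made anew. Members of such a pair deviated from their group means with a correlation of 0.176 to 0.930 over 9381 genes (18 of 18 pairs above 0.1). edgeR's quasi-likelihood test, fitted without a term for these pairs, called 0 of 16723 genes (0%) for *Rxra*SA against *Rxra*WT in each clone on each day. It also called 0 in both clones together on each day and for the difference between clones on each day. Each contrast had 125 to 355 genes at an unadjusted p under 0.05. Differences within pairs of 1 clone and day were thus not tested. Over these 12 contrasts DESeq2 called 7 genes in total, edgeR with a replicate block called 6 and edgeR without the filter called 13. The block ties libraries of 1 number and clone across days, although numbers were not taken to pair days.

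All 3 pairs had the same sign for 8 of the 10 genes in clone 48 at day 0, where 28.6% of all genes tested did, for 6 at day 2 (30.2%) and for 6 at day 6 (33.5%). In clone 66 this held for 7 genes on day 0 (16.7%), for 7 on day 2 (21.8%) and for 6 on day 6 (31.1%). All pairs had one sign in clone 48 and the other sign in clone 66 for 4 genes on day 0 (3.88% of all genes), for 2 on day 2 (2.96%) and for 4 on day 6 (8.29%). Since these differences chose the genes, nothing is read from the counts. Some of the signs rest on few reads. At day 0 in clone 48 *Car3* had 0 to 3 reads per library and *Alcam* had 2 to 11. At day 6 in clone 66 *Lyz2* had 0 to 8. The median size of the mean difference of the 10 genes on days 0, 2 and 6 was 0.35, 0.48 and 0.14 on the log2 scale in clone 48, and 0.53, 0.44 and 0.21 in clone 66. Over all genes it was 0.18, 0.10 and 0.11 in clone 48, and 0.08, 0.08 and 0.10 in clone 66.

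**Figure D3:**
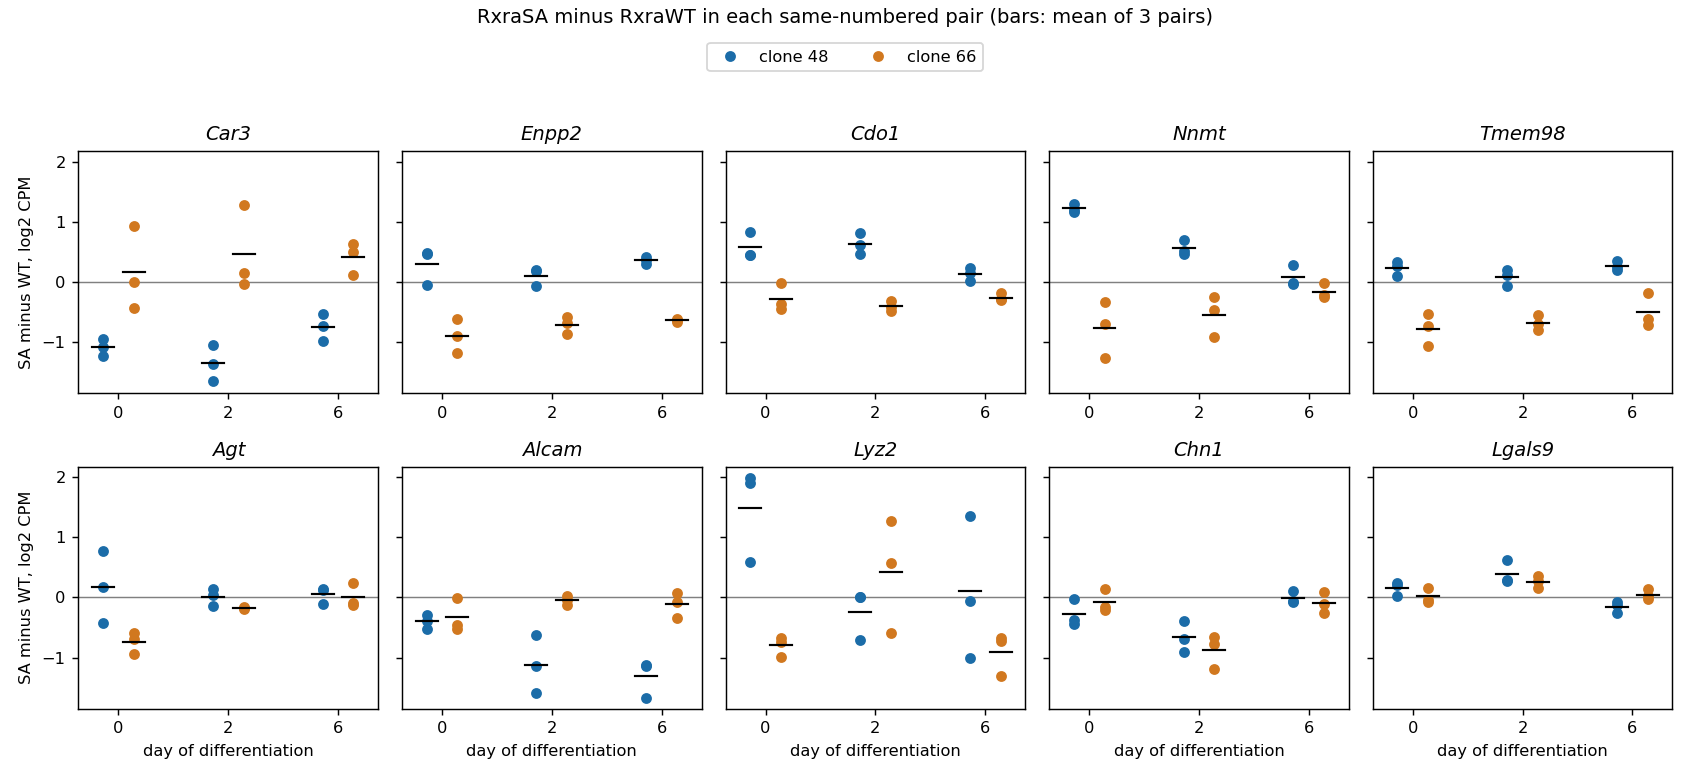
Each point is the log2 CPM of an *Rxra*SA library minus that of the *Rxra*WT library of the same number, plotted by day for clone 48 (blue) and clone 66 (orange), and bars are means of 3 pairs. Points of the 2 clones lie on opposite sides of 0 for *Nnmt* at day 0 and *Enpp2* at day 6, and on the same side for *Chn1* at day 2.

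*Nnmt* had the widest opposite difference after that of *Lyz2*. Its day 0 libraries had few counts, 15 to 50 in clone 48 and 6 to 22 in clone 66. At day 0 of clone 48 it read 1.38, 1.21 and 0.763 CPM in *Rxra*WT and 3.57, 2.87 and 1.89 CPM in *Rxra*SA, and in clone 66 it read 1.12, 0.526 and 0.575 CPM against 0.400, 0.282 and 0.432 CPM. *Rxra*SA was above *Rxra*WT in every library of clone 48 and below it in every library of clone 66. The mean pair difference was 1.22 ± 0.07 (SD, 3 pairs) on the log2 scale in clone 48 and -0.77 ± 0.47 in clone 66. On day 2 the values were 0.56 ± 0.12 and -0.55 ± 0.35, and on day 6 they were 0.08 ± 0.18 and -0.16 ± 0.13. The difference was thus smallest at day 6, when the level was highest.

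*Enpp2* differed in clone 66 on every day. There the pair differences on the log2 scale were -0.61, -1.18 and -0.91 on day 0 and -0.87, -0.68 and -0.58 on day 2. On day 6 they were -0.63, -0.62 and -0.67. At day 6 the *Rxra*WT libraries of clone 66 read 1359.8, 1348 and 1202 CPM and the *Rxra*SA libraries 878, 878 and 756 CPM. In clone 48 the *Rxra*SA libraries were higher, at 560.1, 635 and 457 CPM against 434, 515 and 344 CPM, a mean pair difference of 0.36 ± 0.05. The genotypes overlapped in clone 48, where replicate 3 was the lowest of both, and did not in clone 66.

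*Tmem98* behaved much like *Enpp2*. In clone 66 *Rxra*SA was lower in all 9 pairs, with mean differences of -0.78 ± 0.27, -0.68 ± 0.12 and -0.51 ± 0.28 on the log2 scale at days 0, 2 and 6. In clone 48 it was higher in all pairs at day 0 (0.23 ± 0.12) and at day 6 (0.27 ± 0.07), and the pairs were split at day 2 (0.08 ± 0.14).

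*Cdo1* was higher in *Rxra*SA in all pairs of clone 48 and lower in all pairs of clone 66. The means were 0.57 ± 0.23, 0.63 ± 0.18 and 0.14 ± 0.10 on the log2 scale in clone 48 and -0.28 ± 0.22, -0.40 ± 0.08 and -0.26 ± 0.06 in clone 66, at days 0, 2 and 6. At day 2 the libraries of clone 48 read 9.10, 10.98 and 6.14 CPM in *Rxra*WT and 13.9, 15.1 and 10.9 CPM in *Rxra*SA. Those of clone 66 read 60.8, 61.7 and 43.7 CPM and 43.6, 46.4 and 34.9 CPM. The genotypes overlapped in both clones, and replicate 3 was the lowest library of each genotype in each clone.

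*Car3* went the other way round. At day 6 of clone 48 it read 309.7, 322 and 255 CPM in *Rxra*WT and 214, 163 and 152 CPM in *Rxra*SA. In clone 66 it read 39.2, 46.1 and 39.0 CPM against 55.6, 50.3 and 60.2 CPM. The genotypes did not overlap in either clone. The mean pair difference was -0.75 ± 0.22 on the log2 scale in clone 48 and 0.42 ± 0.26 in clone 66. At day 2 it was -1.35 ± 0.30 in clone 48, and in clone 66, where no library had more than 16 counts, the pairs were split. At day 0 all libraries had 3 counts or fewer.

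*Lyz2* at day 0 read 0.346, 0.545 and 1.32 CPM in *Rxra*WT and 1.70, 2.35 and 2.05 CPM in *Rxra*SA of clone 48. In clone 66 it read 3.41, 4.21 and 2.80 CPM against 2.10, 2.07 and 1.64 CPM. The mean difference was 1.498 ± 0.79 on the log2 scale in clone 48 and -0.80 ± 0.17 in clone 66, from 7 to 88 counts per library. The summed macrophage and leukocyte markers overlapped between the genotypes in clone 48 (9.32 to 12.5 CPM per kilobase in *Rxra*WT and 9.21 to 12.4 in *Rxra*SA), but not in clone 66 (9.99 to 11.3 and 9.59 to 9.79). Their part in the difference was not tested.

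The mean difference of *Alcam* was below 0 in both clones on every day. In clone 48 the mean differences on days 0, 2 and 6 were -0.40 ± 0.12, -1.12 ± 0.48 and -1.31 ± 0.31 on the log2 scale, from 2 to 55 counts per library. At day 6 all 3 *Rxra*SA libraries of clone 48 were below all 3 *Rxra*WT libraries. In clone 66, at 71.5 to 90.4 CPM, the mean difference at day 6 was -0.11 ± 0.21 and the genotypes overlapped. On day 0 of clone 66 it was -0.33 ± 0.28, with all 3 pairs lower, and on day 2 it was -0.05 ± 0.07. *Agt* differed in all pairs of clone 66 at day 0 (-0.74 ± 0.18) and at day 2 (-0.18 ± 0.02), and at day 6 the pairs were split (0.01 ± 0.20). In clone 48 its pairs were split on each day.

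For *Chn1* and *Lgals9* the clones did not differ in direction at day 2. *Chn1* was lower in *Rxra*SA in all 6 pairs, with a mean difference of -0.66 ± 0.25 on the log2 scale in clone 48 and -0.87 ± 0.29 in clone 66. At that time it read 21.1, 22.7 and 11.3 CPM in *Rxra*WT and 11.3, 14.1 and 8.60 CPM in *Rxra*SA of clone 48, and 2.13, 2.60 and 1.31 CPM against 0.866, 1.62 and 0.719 CPM in clone 66. The genotypes overlapped in both clones, and replicate 3 was the lowest library of each group. *Lgals9* was higher in *Rxra*SA by 0.39 ± 0.20 and 0.26 ± 0.10, also in all 6 pairs. At day 6 the mean difference of *Chn1* was -0.01 ± 0.10 and -0.09 ± 0.18, and that of *Lgals9* was -0.15 ± 0.09 and 0.05 ± 0.08. The description of the set as clone-dependent thus does not hold for the direction of these 2 genes at day 2. Nor does it hold for that of *Alcam* at day 0, which was lower in *Rxra*SA in all 3 pairs of each clone.

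Correlations of the pair differences are a description only, since the genes were chosen for such differences. Over the 18 pairs Pearson's r was 0.91 between *Enpp2* and *Tmem98*, the closest partner of each among the 9726 genes whose mean log2 CPM was 3 or more. *Enpp2*, *Cdo1*, *Nnmt* and *Tmem98* had r between 0.73 and 0.91 with each other, and *Car3* had r between -0.77 and -0.69 with these 4. *Alcam* had -0.66 with *Enpp2*, and *Chn1* had -0.69 with *Lgals9*. Pairs of 1 clone and day share their stage, their library pool and the retroviral lines. The pair differences of *Car3* rest on at most 3 counts per library at day 0, and on at most 16 at day 2 in clone 66. Those of *Lyz2* rest on at most 8 counts after day 0. The closest partners outside the set were *Wdr41* for *Car3* (r = 0.765), *Hvcn1* for *Cdo1* (0.863), *H2-D1* for *Nnmt* (0.863), *Dhrs3* for *Agt* (0.825) and *Otub2* for *Lyz2* (0.841). For *Lgals9* it was *Calhm2* (0.797), for *Alcam* it was *Gltp* (0.710) and for *Chn1* it was *Nek4* (0.679).

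Over the 36 libraries *Enpp2* and *Cdo1* had r = 0.98, whereas *Enpp2* and *Tmem98* had -0.16. The genes closest in level were *Klb* and *Pfkfb1* for *Car3* (r = 0.983 and 0.980), *Slc43a1* for *Enpp2* (0.984) and *Cdo1* (0.980), and *H2-K1* and *Tgm2* for *Nnmt* (0.980 and 0.978). *Wfdc12* followed for *Cdo1* (0.978). *Ormdl3* and *Osbpl11* were closest to *Agt* (0.982 and 0.977), *Ctnnal1* and *Lhfp* to *Lyz2* (0.949 and 0.945), and *Tifa* and *Tead2* to *Lgals9* (0.963 and 0.957). The others were *Rev1* and *Cep76* for *Alcam* (0.954 and 0.951), *Ldah* and *Hmgb3* for *Chn1* (0.936 and 0.929), and *Pip4k2c* and *Ankmy2* for *Tmem98* (0.927 and 0.919). These libraries share the days and the clones, and the levels of *Car3* at day 0 and of *Lyz2* after day 0 rest on few counts.

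**Figure D4:**
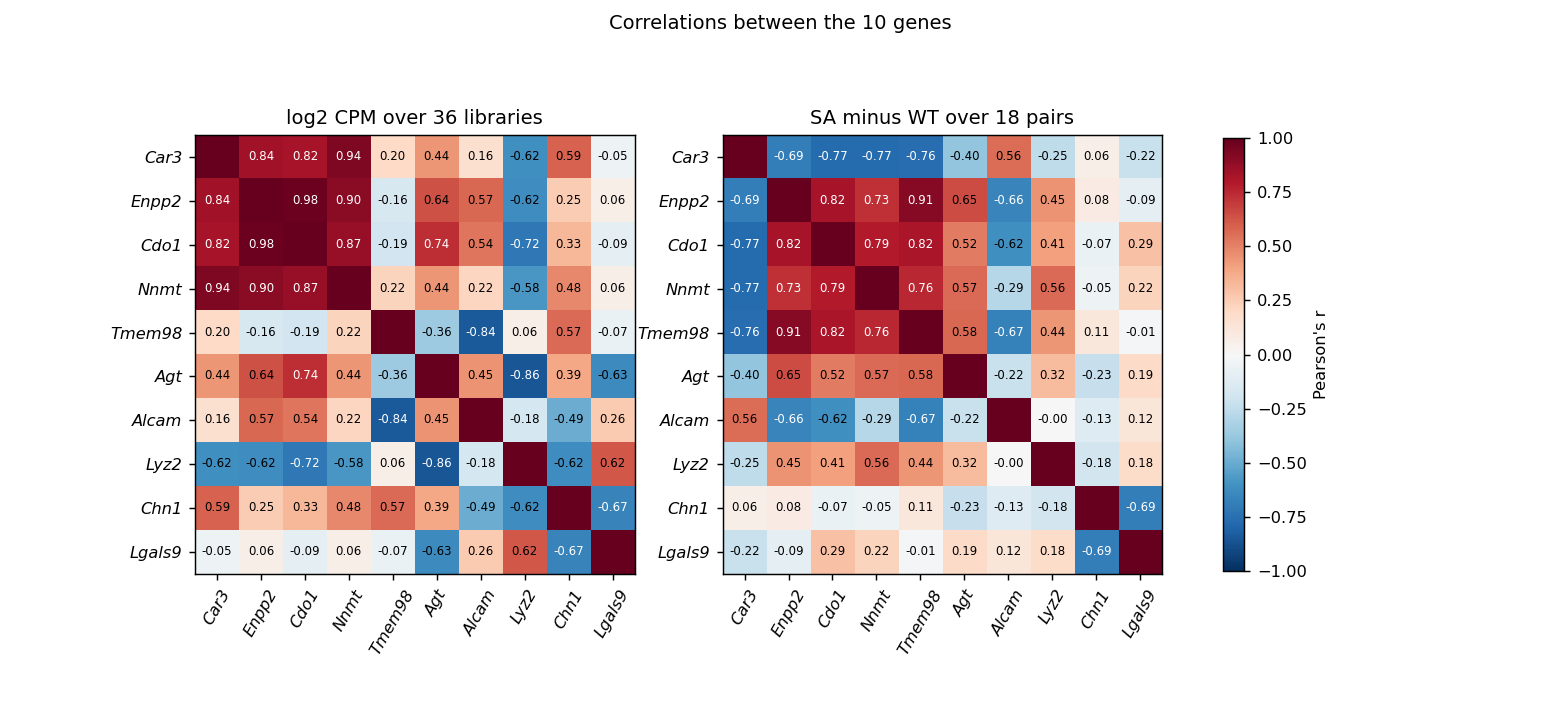
Pearson's r between each pair of the 10 genes is shown by colour and number, on the left for log2 CPM over 36 libraries and on the right for the log2 difference of *Rxra*SA and *Rxra*WT over 18 pairs. *Enpp2* and *Tmem98* change from -0.16 on the left to 0.91 on the right, and *Car3* is negative with *Enpp2*, *Cdo1*, *Nnmt* and *Tmem98* on the right. Values of *Car3* at day 0 and of *Lyz2* after day 0 rest on few counts.

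On the GRCm38 assembly (GENCODE M21) *Tmem98* (80810175 to 80822033) and *Lgals9* (78962974 to 78984946) are both on chromosome 11. The others are *Car3* on chromosome 3 (14863512 to 14872523), *Enpp2* on 15 (54838901 to 54952892), *Cdo1* on 18 (46713193 to 46728395), *Nnmt* on 9 (48591877 to 48605153), *Agt* on 8 (124556534 to 124569706), *Alcam* on 16 (52248996 to 52454074), *Lyz2* on 10 (117277331 to 117282321) and *Chn1* on 2 (73610660 to 73775346). All are protein-coding, and each value is the sum over the gene's annotated exons.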

How the data were processed

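RNA-seq libraries of total RNA (TruSeq Stranded kit, Illumina) were aligned by the authors with STAR 2.7.0d, and reads were counted over gene exons with featureCounts 1.6.2 without strand, on mm10 with GENCODE M21. The deposited values are raw counts per gene for each of 36 libraries. Counts were scaled by TMM and filtered with filterByExpr (16723 genes). edgeR 4.0.16 in R 4.3.3 (glmQLFit, glmQLFTest) fitted time, clone and genotype, with Benjamini-Hochberg adjustment over all genes at 0.05, and was tested on simulated data. CPM are scaled by total count and TMM factor, and log2 CPM used a prior count of 2. Pairs were libraries of 1 number, clone and day: 34 of 36 libraries were best matched by their own number in the other genotype, whereas numbers were not taken to pair days, since 27 and not all of 36 correlations were above 0.1, although 43 of 72 comparisons matched their own number best. The members and lists were chosen with earlier results of these data known. Of each list the gene with the highest level per kilobase and the gene with the widest change from day 0 to day 6 were named, and the windows of *Chn1* were picked after the values were seen. Alternatives were RLE and library-size scaling, other filters, a replicate block, DESeq2 1.42.0, other quasi-likelihood settings, 1 coefficient for each group and leaving out each library. Summing same-numbered libraries, and the genotype counts under other settings, were added after seeing the data. Figures were drawn with matplotlib 3.10.9.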

Additional observations from a re-analysis of the deposited data

Results flagged for a closer look

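The clones differed in 12 time steps by a test of the difference itself (edgeR, clone 66 minus clone 48, log2). From day 0 to day 2 these were *Enpp2* (1.26), *Cdo1* (1.44), *Nnmt* (1.35), *Tmem98* (0.66), *Chn1* (-1.43) and *Lgals9* (0.72). From day 2 to day 6 they were *Car3* (1.05) and *Cdo1* (-1.97). From day 0 to day 6 they were *Nnmt* (1.17), *Tmem98* (0.63), *Chn1* (-2.12) and *Lgals9* (0.60). Only *Cdo1* from day 2 to day 6 was called when same-numbered libraries were summed.

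In 10 cases every pair of clone 48 had one sign for *Rxra*SA against *Rxra*WT and every pair of clone 66 the other, and these differences between the clones are given without a p, since they chose the genes. The test of that difference over all genes, fitted without a term for the pairs, called 0 of 16723. As clone 48 minus clone 66 on the log2 scale it was -1.17 for *Car3* and 1.00 for *Enpp2* at day 6. *Cdo1* gave 0.85, 1.03 and 0.40 on days 0, 2 and 6. For *Nnmt* it was 1.99 at day 0 and 1.11 at day 2. For *Tmem98* it was 1.01 at day 0 and 0.78 at day 6, and for *Lyz2* at day 0 it was 2.30. Groups of 3 libraries are too small for a test of single outlying libraries.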

How the results depend on the processing

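The counts of members called on the day steps (10, 9 and 8) and between clones (7, 8 and 8) stayed within 1.5 times under all alternatives. The clone differences in the time steps did not: with same-numbered libraries summed 0, 1 and 0 were called in place of 6, 2 and 4, and without the filter 2 in place of 4 from day 0 to day 6. For day 2 to day 6 the count was 1 to 2 with single libraries left out. *Car3* was lost there without clone 48 *Rxra*SA day 2 replicate 1 or day 6 replicate 2, without clone 66 *Rxra*WT day 2 replicate 1 or 3 or day 6 replicate 2, or without clone 66 *Rxra*SA day 2 replicate 1 (adjusted p up to 0.0734). *Chn1* from day 0 to day 2 was lost in 5 of 36 such fits (adjusted p up to 0.0988), without *Rxra*WT or *Rxra*SA day 2 replicate 2 of clone 48, or without *Rxra*SA day 2 replicate 1, *Rxra*WT day 0 replicate 3 or *Rxra*SA day 0 replicate 3 of clone 66. *Tmem98* from day 0 to day 6 was lost in 5 (up to 0.0597), without *Rxra*WT or *Rxra*SA day 0 replicate 2 of clone 48, or *Rxra*WT day 0 replicate 1 or 3 or *Rxra*SA day 6 replicate 2 of clone 66, and with library size alone (0.0524). The day 0 clone call of *Agt* was lost without *Rxra*WT replicate 1 or 3 or *Rxra*SA replicate 2 or 3 of clone 48, or *Rxra*SA replicate 1 or 2 or *Rxra*WT replicate 2 of clone 66. Genotype contrasts over all genes called 6 genes with a replicate block, 13 without the filter and 7 with DESeq2, in place of 0. The replicate block kept 144 of 150 values on their side of the threshold and changed 6, of which 5 are given above and 1 is *Tmem98* in clone 66 from day 0 to day 6 (adjusted p = 0.0156, from 0.0528), and the causes of these changes were not tested. That step of *Tmem98* was also called by edgeR with RLE factors (adjusted p = 0.0436) or its version 4 quasi-likelihood (0.0498), and by DESeq2 (0.0492). The remaining settings did not call it, and 20 of 36 fits that left out 1 library did. Values that turned sign were not called. With single libraries left out, the clone differences in the step from day 0 to day 6 spanned -0.0929 to 0.23 for *Agt* and -0.81 to 0.51 for *Lyz2*. Those of *Lyz2* spanned -0.33 to 1.68 from day 0 to day 2 and -1.90 to 0.10 from day 2 to day 6, and that of *Tmem98* from day 2 to day 6 spanned -0.11 to 0.0731. *Tmem98* at day 6 against day 0 spanned -0.11 to 0.0293, *Car3* between clones at day 0 spanned -1.30 to 0.20, and *Chn1* from day 2 to day 6 in clone 48 spanned -0.11 to 0.15, with -0.0451 for summed libraries. Depth limits *Lyz2* after day 0, *Car3* at day 0 and *Alcam* in clone 48, which rest on few counts. Counts were also low for *Nnmt* (6 to 50) and *Cdo1* (11 to 50) at day 0 and for *Chn1* in clone 66 (5 to 47).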
